A study of Mus musculus with 6 samples.

Results

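Genes of the response to low oxygen and of glycolysis were followed in mouse bone marrow mesenchymal stem cells cultured at 2 seeding densities. The 32 genes were taken by symbol and comprise 17 glycolysis genes (glucose uptake, glycolytic enzymes, their regulators and lactate output) and 15 other genes known to rise in low oxygen. These genes and the further lists below were chosen with earlier results of these data known. Their counts beside those of all tested genes are therefore a description. All 32 had a probe set on the array, out of 22349 named genes, and all 32 were among the 16762 genes whose mean log2 value passed the filter on low values. Where a gene had several probe sets, the brightest on average was used.

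In cells with little oxygen the transcription factor HIF-1, a pair of the oxygen-controlled subunit HIF-1alpha and its partner ARNT, escapes hydroxylation by the prolyl hydroxylases (EGLN proteins) and destruction through VHL, and binds DNA elements with the core RCGTG near its target genes. Known targets raise glucose uptake and glycolysis, keep pyruvate out of mitochondria, remove mitochondria by mitophagy, modify collagen and restrain growth. Bone marrow stromal cells live in a niche poor in oxygen and are known to rely heavily on glycolysis. Oxygen, HIF-1alpha protein and lactate were not among the measurements analysed here.

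The cells had been isolated from mouse marrow and grown in a commercial stem cell medium, and no group carried a genetic change or a drug per the labels, which give neither strain nor age. Dense cultures had been seeded with 2500000 cells and sparse cultures with 15000, and RNA was collected 1, 2 and 3 days after seeding, with 1 Affymetrix array for each density and day (3 dense, 3 sparse). The labels call the cell samples independent without naming separate animals. All sample titles share the same prefix, which the labels do not explain. With no replicate of a density and day, a p-value of the density fit sets a difference against its spread over the 3 days. In limma that spread is drawn toward the spread common to all tested genes. The array medians ran from 4.33 to 4.45 on the log2 scale, and the 75th percentiles were 6.82 to 6.86 in the dense and 6.66 to 6.75 in the sparse arrays.

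Stromal markers were present. The collagen genes Col1a1 and Col1a2, the niche chemokine Cxcl12 and the receptors Pdgfra and Pdgfrb had mean log2 values of 8.38 to 11.9, above the medians of all arrays, while the endoglin gene Eng (4.32) lay near them. By limma, 7 of the 12 stromal markers were higher (58.3%, against 8.26% of all tested genes) and 1, Cd44, lower (against 2.9%) in dense cultures. Of 13 markers of leukocytes, erythroid cells and endothelium, 7 lay under the filter and the 6 tested had means of 3.33 to 4.76, with 0 past limma's test and 0 at an unadjusted p under 0.05. In bulk RNA, fewer cells expressing a gene and less of its RNA per cell cannot be told apart.

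In dense cultures 13 of the 32 genes were higher and 0 were lower by limma (adjusted p under 0.05, density with the day as a factor). That is 40.6% of the members, while 8.26% of all tested genes were higher and 2.9% lower. At an unadjusted p under 0.05, 20 members were higher and 0 lower, against 19.1% and 15.2% of all tested genes. The other low-oxygen targets made up 9 of the 13 (9 of 15, 60%), led by the mitophagy receptor gene Bnip3 (5.77-fold) and the pyruvate dehydrogenase kinase gene Pdk1 (5.03-fold). Glycolysis genes made up 4 (4 of 17, 23.5%), of which the liver-type phosphofructokinase gene Pfkl (2.46-fold) had the largest difference. The median log2 difference, dense minus sparse, was 1.08 over the other targets, 0.30 over the glycolysis genes and -0.05 over all tested genes. All 3 dense arrays lay above all 3 sparse arrays for 20 of the 32 genes (62.5%), against 20.9% of all tested genes, and the reverse held for 0 of them, against 19%.

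These calls rest on 2 residual degrees of freedom. Without both day 2 arrays limma called 0 of the 32 genes and 0 of all 16762 (15 and 2531 at an unadjusted p under 0.05). The differences of the 13 genes were then 0.56 to 2.49, with a median of 1.45, beside 0.60 to 2.53 with a median of 1.30 over all days. Without both day 1 arrays 10 of the 13 calls were kept, and the glycolysis genes had 1 call. Without both day 3 arrays all 13 were kept and 6 were gained. In the authors' deposited table, which compares the same arrays, 16 of the 32 probe sets were higher in dense with p under 0.05 and 0 were lower. Of all its 35556 probe sets, named or not and without a filter, 10.5% were higher. The 16 were 8 of the 17 glycolysis genes and 8 of the 15 other targets. The deposited p-values were taken without adjustment, whereas limma's 4 and 9 calls used an adjusted p, so these counts have unlike thresholds. At an unadjusted p under 0.05 limma had 20 members higher.

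**Figure D1:**
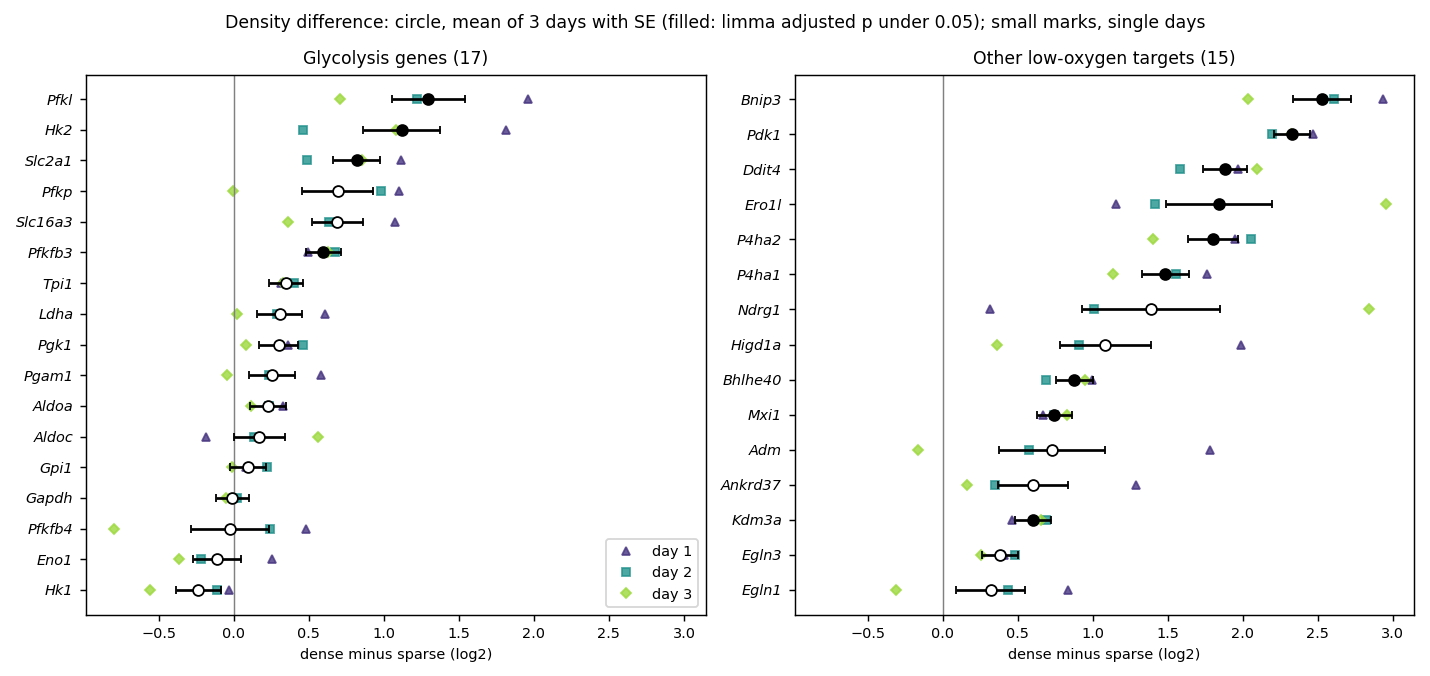
Log2 difference between dense and sparse cultures (x axis) for each glycolysis gene (left) and each other low-oxygen target (right). Large circles are the mean of 3 daily differences with the standard error from limma, filled where the adjusted p was under 0.05, and small marks are the differences of single days. Filled circles are 4 of 17 on the left and 9 of 15 on the right.

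Promoter windows from RefSeq (GRCm38.p6, 250 bases before to 50 after an annotated start) were available for 30 of the 32 genes, 43 windows in all, with Ero1l matched through its current name Ero1a. Ndrg1 and Bhlhe40 had none in the table. The letters ACGTG, 1 form of the HIF-binding core, were searched on both strands, where the reverse strand reads CACGT and the palindrome CACGTG counts on both. They occurred in 21 of the 30 genes (70.0%), and among all tested genes with a window under their current symbol in 27.4%. The other form, GCGTG, occurred in 22 of the 30 (73.3%), against 51.9%. Among the 12 members higher in dense that had a window, 9 (75%) held ACGTG, as did 12 of the 18 (66.7%) that did not pass. Several members are known for such elements, so these shares are a description, and a match is not a bound site.

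The 6 windows printed here were chosen for their ACGTG or CACGT letters, in capitals: 3 of the most raised low-oxygen targets, the glucose transporter gene Slc2a1, and the glycolysis genes Pgk1 and Ldha, which hold the same letters but did not pass the test. All 6 were picked for holding them, whereas Pdk1, Pfkl and Kdm3a, all higher in dense, have 0 matches in their 2, 1 and 3 windows. Each of these genes holds the other form, GCGTG, in 1 window. Either form occurred in all 12 higher members with a window, 16 of the 18 others and 63.2% of tested genes. Positions count from the annotated start of each window as +1. That start matched the annotated 5 prime end of the gene in 17 of 43 windows. The printed Ldha window lies inside the annotated gene, which begins at 46842274. The windows lie at chr7:138909457-138909756, minus strand for Bnip3, chr11:54100674-54100973, plus strand for P4ha2, chr10:59951721-59952020, minus strand for Ddit4, chr4:119108495-119108794, plus strand for Slc2a1, chrX:106186850-106187149, plus strand for Pgk1 and chr7:46845554-46845853, plus strand for Ldha, which has a further window.
Bnip3: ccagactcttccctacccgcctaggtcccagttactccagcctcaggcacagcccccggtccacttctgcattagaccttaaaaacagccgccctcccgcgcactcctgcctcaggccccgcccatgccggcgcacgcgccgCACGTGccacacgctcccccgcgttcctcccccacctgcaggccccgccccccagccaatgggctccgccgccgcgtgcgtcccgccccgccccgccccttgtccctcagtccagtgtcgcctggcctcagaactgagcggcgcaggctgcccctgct
P4ha2: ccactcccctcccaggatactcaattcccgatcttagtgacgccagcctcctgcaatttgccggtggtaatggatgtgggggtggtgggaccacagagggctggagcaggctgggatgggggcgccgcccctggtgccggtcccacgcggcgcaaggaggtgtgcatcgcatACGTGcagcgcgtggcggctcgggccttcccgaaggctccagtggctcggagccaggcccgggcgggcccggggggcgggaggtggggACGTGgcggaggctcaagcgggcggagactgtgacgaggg
Ddit4: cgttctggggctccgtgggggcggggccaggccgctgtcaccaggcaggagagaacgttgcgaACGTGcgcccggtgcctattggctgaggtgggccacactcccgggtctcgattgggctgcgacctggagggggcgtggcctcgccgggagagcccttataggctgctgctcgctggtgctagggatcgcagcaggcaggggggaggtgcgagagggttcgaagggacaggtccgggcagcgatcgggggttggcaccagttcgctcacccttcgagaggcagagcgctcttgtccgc
Slc2a1: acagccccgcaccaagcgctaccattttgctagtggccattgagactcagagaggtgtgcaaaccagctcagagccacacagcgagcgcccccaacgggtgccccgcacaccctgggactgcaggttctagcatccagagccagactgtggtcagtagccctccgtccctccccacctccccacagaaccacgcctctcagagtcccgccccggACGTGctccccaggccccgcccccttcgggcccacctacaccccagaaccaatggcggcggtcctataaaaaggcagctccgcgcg
Pgk1: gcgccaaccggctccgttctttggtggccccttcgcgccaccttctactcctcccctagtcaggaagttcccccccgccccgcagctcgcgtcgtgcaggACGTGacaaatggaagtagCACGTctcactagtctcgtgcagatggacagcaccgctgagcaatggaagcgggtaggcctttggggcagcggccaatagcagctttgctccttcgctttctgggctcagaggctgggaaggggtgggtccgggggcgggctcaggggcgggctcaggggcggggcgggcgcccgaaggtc
Ldha: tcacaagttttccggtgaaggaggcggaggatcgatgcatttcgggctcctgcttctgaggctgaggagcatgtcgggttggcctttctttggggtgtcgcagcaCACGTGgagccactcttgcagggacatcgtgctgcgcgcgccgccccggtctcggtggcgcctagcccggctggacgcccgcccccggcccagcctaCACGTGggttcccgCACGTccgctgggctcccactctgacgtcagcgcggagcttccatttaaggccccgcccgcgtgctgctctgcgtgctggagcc
In Bnip3 the palindrome begins at -108, and in P4ha2 the letters begin at -78 and at 11. Ddit4 holds them from -187 and Slc2a1 from -36. Pgk1 holds one copy from -150 and a reverse copy from -131, and Ldha has palindromes from -145 and -48 with a reverse copy from -34.

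The mitochondrial targets Bnip3 and Pdk1 had the widest differences among the members. Bnip3 encodes an outer membrane receptor that marks mitochondria for removal. Its log2 values were 10.35, 10.20 and 9.91 on dense days 1 to 3 and 7.41, 7.59 and 7.87 on sparse days 1 to 3. The groups stood apart on every day while approaching each other, with daily differences of 2.94, 2.61 and 2.04. The mean difference was 2.53 ± 0.19 (SE, 3 arrays per density, limma adjusted p = 0.00694), and a second Bnip3 probe set gave 2.34. A probe set can read near-identical copies of a gene, and the files do not say which copies each one matches.

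Pdk1, whose kinase switches off pyruvate dehydrogenase and so keeps pyruvate out of the citric acid cycle, had dense log2 values of 8.12, 8.34 and 8.34 and sparse values of 5.64, 6.15 and 6.02. This was the steadiest large difference, from 2.19 to 2.47 over the days, and the smallest adjusted p among the members (2.33 ± 0.12, adjusted p = 0.00399). Higd1a, a small mitochondrial protein gene of the respiratory chain, read 6.82, 6.40 and 5.80 in dense and 4.84, 5.49 and 5.44 in sparse cultures. The arrays did not overlap, yet the difference shrank from 1.99 to 0.36 and the gene did not pass (1.08 ± 0.30, adjusted p = 0.0722). It passed without the day as a replicate block (adjusted p = 0.0431) and without both day 3 arrays (1.45, adjusted p = 0.00723). Its second, dimmer probe set had a difference of 0.68.

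Of the 3 enzymes that act on secreted proteins all 3 passed the test and were higher, against 8.26% of all tested genes. P4ha1 and P4ha2 encode the catalytic subunits of collagen prolyl 4-hydroxylase, which stabilises the collagen helix and itself uses oxygen. P4ha1 had log2 values of 10.59, 10.83 and 10.49 in dense against 8.83, 9.27 and 9.36 in sparse cultures, a difference of 1.48 ± 0.16 (adjusted p = 0.0100). P4ha2 stood at 8.88, 9.20 and 8.64 against 6.93, 7.14 and 7.23 (1.80 ± 0.16, adjusted p = 0.00763). Both kept clear of the sparse arrays on each day. Ero1l, whose product forms disulfide bonds in the endoplasmic reticulum, read 9.61, 9.60 and 11.08 in dense and 8.46, 8.18 and 8.13 in sparse cultures. Its difference, 1.15 and 1.42 on the first days, was 2.96 on day 3, and the mean was 1.84 ± 0.35 (adjusted p = 0.0330).

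Regulators of growth and transcription had 4 of 6 genes past the test and higher (66.7%, against 8.26% of all tested genes). Ddit4, an inhibitor of the growth kinase mTORC1, read 8.64, 9.002 and 9.39 in dense and 6.67, 7.42 and 7.29 in sparse cultures, 3.69-fold higher (1.88 ± 0.14, adjusted p = 0.00711). The transcriptional repressor gene Bhlhe40 read 7.64, 7.26 and 6.65 against 6.64, 6.57 and 5.70. It was lower on the later days at both densities, and its dense day 3 value lay just above its sparse day 1 value (0.88 ± 0.13, adjusted p = 0.0183). Mxi1, which encodes an antagonist of MYC, differed by 0.74 ± 0.12 (adjusted p = 0.0214), and its dimmer probe set by 0.36. The histone demethylase gene Kdm3a differed by 0.60 ± 0.12 (adjusted p = 0.0359), with 1 dense array (7.96) under 1 sparse array (7.98). Without the day as a replicate block Bhlhe40 (adjusted p = 0.101) and Kdm3a (adjusted p = 0.0884) did not pass.

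Ndrg1, a stress-responsive differentiation gene, had dense log2 values of 7.80, 8.18 and 9.69 and sparse values of 7.49, 7.17 and 6.84. The difference widened from 0.31 to 2.84, and with such uneven days the gene did not pass (1.39 ± 0.46, adjusted p = 0.102). Ankrd37, a gene of an ankyrin repeat protein, read 5.62, 4.85 and 4.73 in dense and 4.33 to 4.57 in sparse cultures (0.60 ± 0.24, adjusted p = 0.138). The prolyl hydroxylase genes, which mark HIF-1alpha for destruction and are themselves HIF targets, did not pass either. Egln1 had differences of 0.83, 0.43 and -0.31 on the 3 days (adjusted p = 0.356). Egln3 differed by 0.25 to 0.48 a day (adjusted p = 0.0897) and was highest on day 1 at both densities, with 6.77 in dense and 6.37 in sparse cultures. The vasodilator peptide gene Adm, the only secreted factor among the members, read 8.85, 7.94 and 7.06 in dense and 7.07, 7.37 and 7.22 in sparse cultures, so that the groups overlapped by day 3 (0.73 ± 0.35, adjusted p = 0.203). Without both day 3 arrays Egln1 (adjusted p = 0.0419), Ankrd37 (adjusted p = 0.0439) and Adm (adjusted p = 0.0211) passed.

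**Figure D2:**
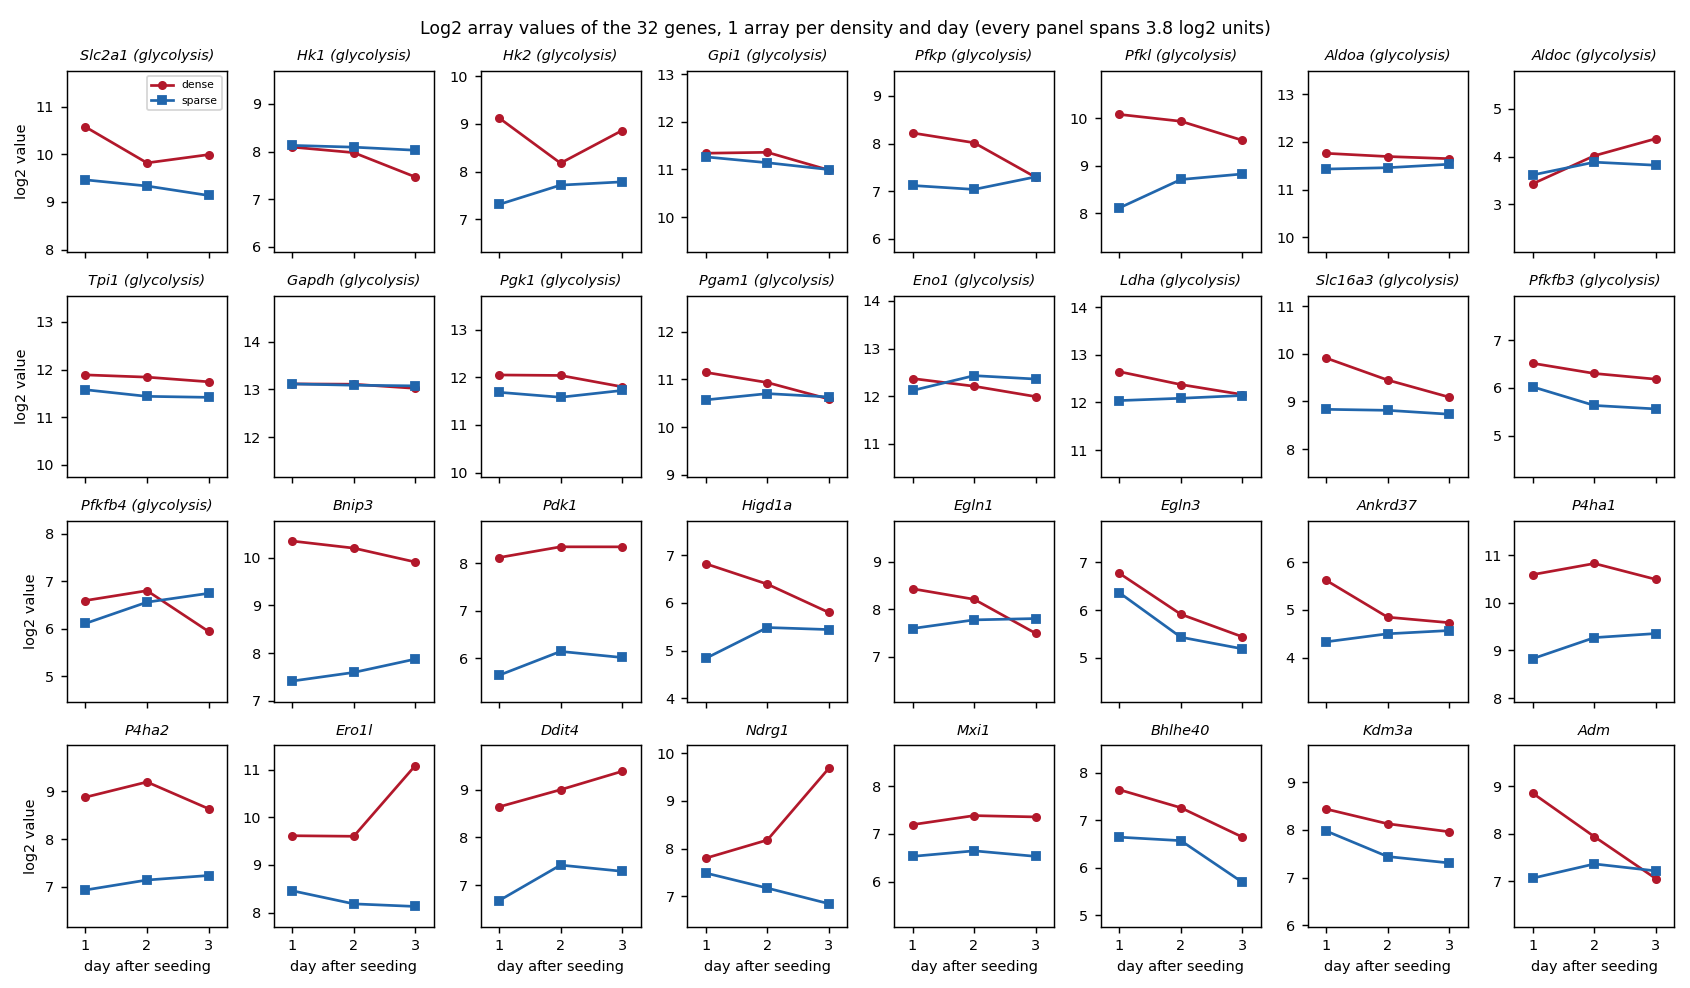
Log2 value (y axis) of each of the 32 genes on days 1 to 3 after seeding (x axis), with 1 dense array (red circles) and 1 sparse array (blue squares) per day. Every panel spans the same range. Bnip3 and Pdk1 show lines far apart on all days, Ero1l and Ndrg1 a dense value that is highest on day 3, and Adm, Ldha and Pfkp lines that meet on day 3.

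Of the 3 genes of glucose entry 2 passed the test and were higher (66.7%, against 8.26% of all tested genes). Slc2a1, the main glucose transporter gene of stromal cells, read 10.57, 9.82 and 9.99 in dense and 9.46, 9.33 and 9.14 in sparse cultures, 1.76-fold higher without overlap (0.82 ± 0.16, adjusted p = 0.0328). Without both day 1 arrays its adjusted p was 0.0655. The hexokinases, which trap glucose as glucose 6-phosphate, had unlike values. Hk2, the inducible form, read 9.12, 8.18 and 8.86 against 7.31, 7.71 and 7.78 (1.12 ± 0.26, adjusted p = 0.0497). That call lies at the threshold and was lost under 7 of 11 alternatives, with adjusted p-values from 0.0295 to 0.157 over all 11. Hk1, the constitutive form, had a difference of -0.24 ± 0.15 (adjusted p = 0.298, 95% interval -0.60 to 0.13).

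The upper steps of glycolysis had 2 of 7 genes past the test and higher (28.6%, against 8.26% of all tested genes). Both act at the phosphofructokinase step that commits sugar to the pathway. Pfkl read 10.08, 9.93 and 9.53 in dense and 8.12, 8.71 and 8.83 in sparse cultures, apart on all days and closing from 1.96 to 0.71 (1.30 ± 0.24, adjusted p = 0.0321). Pfkfb3, which makes the activator fructose 2,6-bisphosphate, read 6.52, 6.30 and 6.18 against 6.02, 5.63 and 5.56 (0.60 ± 0.12, adjusted p = 0.0345). Pfkfb3 did not pass after quantile normalization applied again (adjusted p = 0.0601) or without both day 1 arrays (adjusted p = 0.0526). The platelet-type phosphofructokinase gene Pfkp had differences of 1.10, 0.98 and -0.01 (adjusted p = 0.107) and passed without both day 3 arrays (1.04, adjusted p = 0.00479). Pfkfb4 had 0.48, 0.24 and -0.80 on the 3 days (adjusted p = 0.950). The isomerase gene Gpi1 had a difference of 0.10 with overlapping arrays. The aldolase gene Aldoa had 0.23 (adjusted p = 0.225), with all dense arrays (11.65 to 11.76) above all sparse arrays (11.43 to 11.53). The brain-type aldolase gene Aldoc was dim, with values of 3.43 to 4.38.

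In the lower steps 0 of 5 enzymes passed limma's test, which lies near the 8.26% of all tested genes that were higher. Of the 5 enzymes 1, the triose phosphate isomerase gene Tpi1, had an unadjusted p under 0.05. Tpi1 read 11.89, 11.84 and 11.74 in dense and 11.58, 11.44 and 11.42 in sparse cultures, a small difference without overlap (0.35 ± 0.11, adjusted p = 0.0979). Pgk1, of phosphoglycerate kinase, read 12.05, 12.04 and 11.80 against 11.68, 11.58 and 11.72 (0.30 ± 0.13, adjusted p = 0.170). The mutase gene Pgam1 had 0.26 and the enolase gene Eno1 -0.11, without passing. Gapdh, often taken as a reference gene, lay between 13.02 and 13.12 on all 6 arrays. Its difference was -0.01 with a 95% interval from -0.29 to 0.27, and all 36 Gapdh probe sets gave differences of -0.16 to -0.01. Several of these probe sets had the same values on all 6 arrays, so the 36 are not separate readings. These abundant enzymes have many near-identical gene copies, so that their values can mix several loci.

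Lactate output had 0 of 2 genes past the test, too few to set apart from the 8.26% of all tested genes that were higher. Ldha, which turns pyruvate into lactate, read 12.64, 12.37 and 12.16 in dense and 12.04, 12.09 and 12.14 in sparse cultures. A difference of 0.61 on day 1 was 0.02 on day 3 (0.30 ± 0.15, adjusted p = 0.208). Slc16a3, the lactate exporter gene, read 9.91, 9.45 and 9.09 against 8.83, 8.81 and 8.73 without overlap (0.69 ± 0.17, adjusted p = 0.0547). It passed with a filter at the median level (adjusted p = 0.0498) and without both day 3 arrays (0.86, adjusted p = 0.0153).

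Over the days the differences of the glycolysis genes narrowed as values, without a test that passed. Their median difference was 0.48 on day 1, 0.29 on day 2 and 0.08 on day 3, with 15, 15 and 10 of 17 above 0. The other targets had medians of 1.29, 0.91 and 0.95, with 15, 15 and 13 of 15 above 0. The medians of all tested genes stayed between -0.04 and -0.02. Members at least 2-fold higher in the dense array numbered 14 on day 1 (43.8%, against 3.29% of all tested genes), 8 on day 2 (25%, against 5.89%) and 8 on day 3 (25%, against 6.4%). Single days have 1 array per density and no test.

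Slopes per day were then compared. Of the 17 glycolysis genes 16 had a falling slope in dense cultures, all but Aldoc, and 10 a rising one in sparse cultures. Of the 15 other targets 10 had a falling slope in dense and 10 a rising one in sparse cultures. Over all tested genes 45.8% had a falling slope in dense and 48% a rising one in sparse cultures. The slope in dense was below that in sparse cultures for 24 of the 32 members (75%), against 44.8% of all tested genes. Tested for the difference of slopes, 0 of 32 members passed in limma, against 0.191% of all tested genes (32 genes). An unadjusted p under 0.05 was found for 14 members (43.8%, against 16.2% of all tested genes). Of these 14 genes, 11 had a lower slope in dense than in sparse cultures, while Aldoc (0.37), Ero1l (0.90) and Ndrg1 had a higher one. Closest to passing was Adm, with -0.97 ± 0.14 per day (adjusted p = 0.0529), which passed with a mean-variance trend in the fit (adjusted p = 0.0457). Ndrg1 ran the other way, at 1.26 ± 0.21 per day (adjusted p = 0.0686), and Higd1a had -0.81 ± 0.16 (adjusted p = 0.0844).

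**Figure D3:**
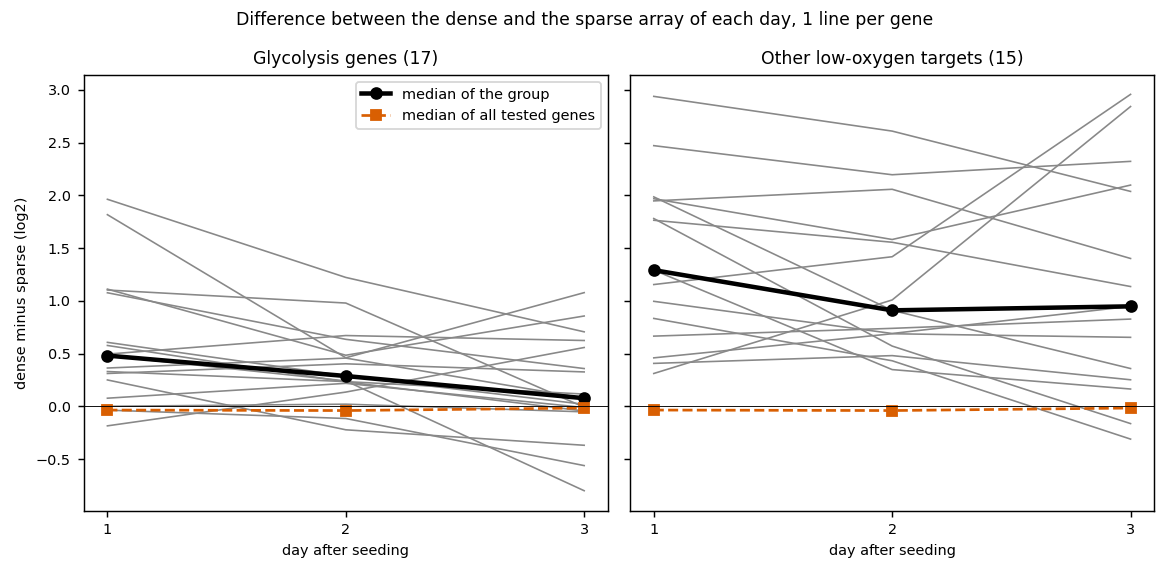
Difference between the dense and the sparse array of each day (y axis, log2) on days 1 to 3 after seeding (x axis), with 1 grey line per gene, the group median in black and the median of all tested genes in orange. The black line runs from 0.48 to 0.08 for glycolysis genes and from 1.29 to 0.95 for the other targets.

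The glycolysis genes differed from the other targets in brightness as well. At or above a log2 level of 10, chosen after the values were seen, lay 8 members, all of them glycolytic. Of these 0 passed limma's test and 1 had an unadjusted p under 0.05, with a median difference of 0.24. Of all 582 genes at that level 42 were higher in dense (7.22%), so 0 of 8 lies near that share. The median difference of the 582 genes was -0.02. Below it 13 of 24 members were higher (54.2%), against 8.29% of all genes there. The part of brightness in these counts was not tested.

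**Figure D4:**
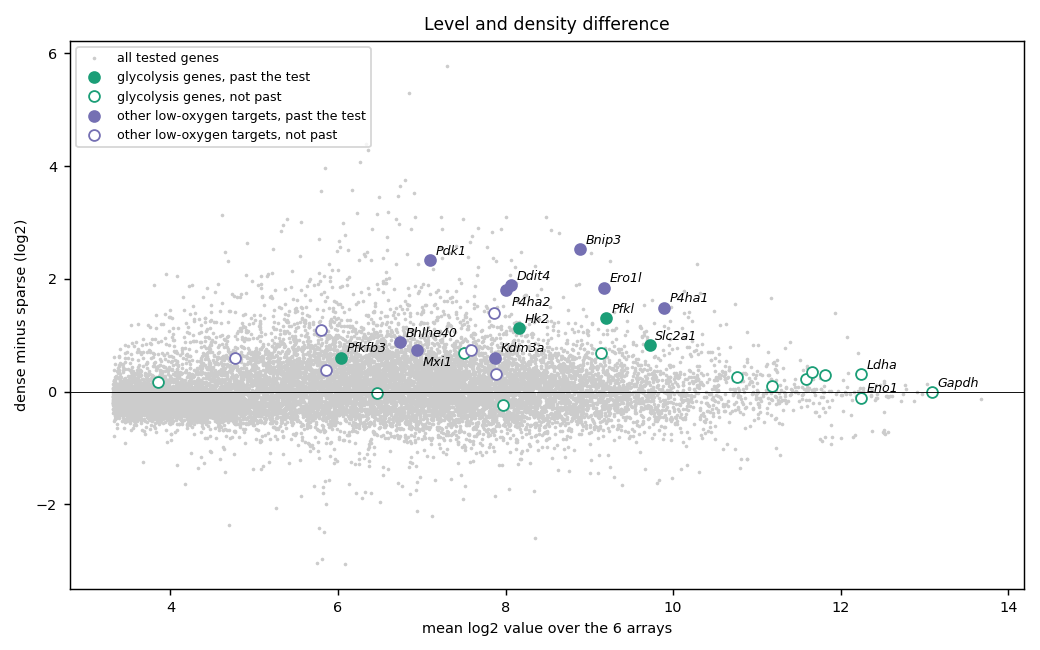
Mean log2 value over 6 arrays (x axis) and log2 difference between dense and sparse cultures (y axis) for all tested genes (grey), glycolysis genes (green) and other low-oxygen targets (purple), filled where limma's adjusted p was under 0.05. The 8 members at a level of 10 or more are open green circles near 0.

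Further genes of the pathway came from 3 lists of 67 symbols, of which 62 were tested, and 22 of these were higher (35.5%) and 4 lower in dense cultures, beside 8.26% and 2.9% of all tested genes. Among 12 HIF factors and regulators 2 were higher (16.7%). Hif1a, the gene of the oxygen-controlled subunit, read 9.49, 9.59 and 9.82 in dense and 8.47, 8.14 and 8.27 in sparse cultures (1.34 ± 0.15, adjusted p = 0.0111). Its partner gene Arnt differed by 0.72 ± 0.15 (adjusted p = 0.0376). HIF-1alpha is controlled mainly through protein stability, and its mRNA does not measure its activity. Vhl had 0.43 (adjusted p = 0.0671), and Epas1, of HIF-2alpha, was dim, at 3.45 to 3.97.

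Among 24 other glycolytic genes 5 were higher (20.8%, against 8.26% of all tested genes) and 1 lower (against 2.9%). The higher ones were the neuron-type enolase gene Eno2 (1.04), the glucose transporter gene Slc2a3 (0.75), Pfkfb2 (0.62), the lactate transporter gene Slc16a1 (0.58) and Ldhb (0.57). The lower one was the kinase gene Pdk4, which is induced by fasting and fatty acids, with dense values of 9.35 to 9.61 and sparse values of 10.18 to 10.42 (-0.85 ± 0.11, adjusted p = 0.0159). Its relative Pdk1 stood at 2.33 and the enolase member Eno1 at -0.11. Differences between such relatives were not tested.

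Among 26 other low-oxygen targets 15 were higher (57.7%, against 8.26% of all tested genes) and 3 lower (against 2.9%). The angiogenic factor gene Vegfa read 10.02, 9.82 and 10.11 in dense and 9.04, 8.87 and 8.84 in sparse cultures (1.07 ± 0.13, adjusted p = 0.0131). The widest differences were those of Ppp1r3c (2.09), which promotes glycogen synthesis, and the stanniocalcin gene Stc1 (2.05). Glycogen synthase, Gys1, differed by 1.38. Rora (1.85), Nos2 (1.69), Stc2 (1.62), Fam162a (1.42), Insig2 (1.33), Bnip3l (0.82) and Kdm4b (0.59) were also higher. Collagen-modifying genes were Loxl2 (1.78), Plod2 (1.25), Lox (1.18) and Plod1 (0.61), beside P4ha1 and P4ha2 above. Lower were the haem oxygenase gene Hmox1 (-1.52), the placental growth factor gene Pgf (-1.06) and the transferrin receptor gene Tfrc (-0.58), so that low-oxygen targets did not all move one way.

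**Figure D5:**
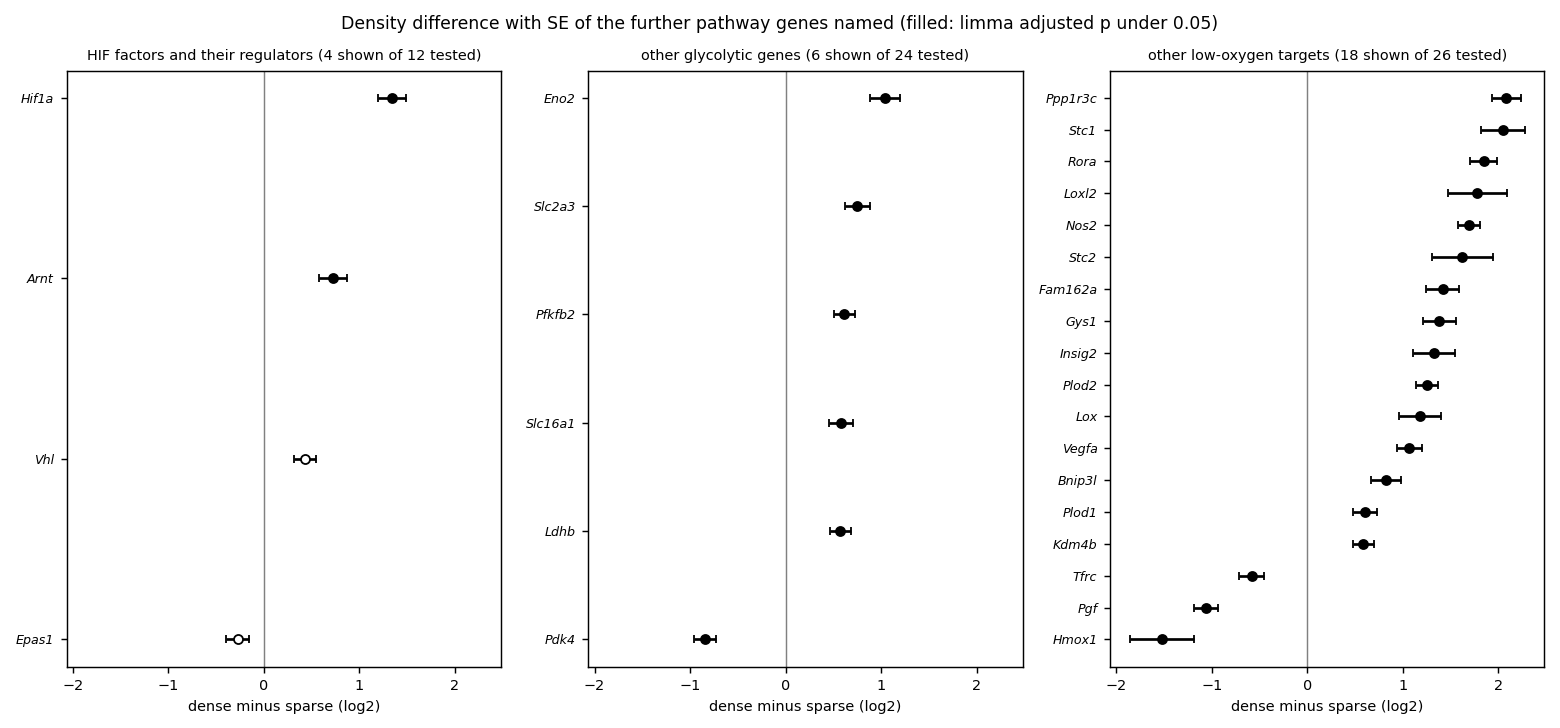
Log2 difference between dense and sparse cultures with the standard error from limma (x axis) for the further pathway genes named here, in 3 panels for HIF factors and regulators, other glycolytic genes and other low-oxygen targets, filled where the adjusted p was under 0.05. Hif1a leads the left panel at 1.34, Pdk4 is lowest in the middle panel at -0.85, and the right panel runs from -1.52 for Hmox1 to 2.09 for Ppp1r3c.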

How the data were processed

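Gene expression was measured on Affymetrix arrays in 3 dense and 3 sparse cultures. The authors deposited 1 log2 value per probe set and array (35556 probe sets), made with RMA in Partek per the submitters' processing notes, which give no versions. The array model is not given in the sources used here. The authors' deposited table also holds, per the file headers, gene symbols, a p-value and a score, the signed fold of dense against sparse. Its 6 other per-sample columns were left unused.

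Symbols named 25917 probe sets. The probe set with the highest mean stood for each of 22349 symbols, and genes at or above the 25th percentile of mean log2 value (3.32) were tested. Values were used as deposited. The models were run in limma 3.58.1 under R 4.3.3 (2-sided p, Benjamini-Hochberg adjustment over all 16762 genes, threshold 0.05, no minimum fold): density plus the day as a factor, and the difference of slopes per day. RMA values compress differences near background. Precision is limited by the number of arrays. The steps were tested on simulated data.

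The day, taken from the labels, paired the arrays. Deviations from the density means correlated at 0.127, 0.0750 and 0.0674 for arrays of the same day, and at -0.150 to 0.109 for different days. All 32 members were described, and further pathway genes were named if they passed or were Hif1a, Epas1, Arnt, Vhl or Vegfa. Members and lists were chosen with earlier results of these data known. Alternatives changed the block, the normalization, the filter, the probe set rule, the variance trend and the days used. A result on a further pathway gene is not reported here.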

Additional observations from a re-analysis of the deposited data

How the results depend on the processing

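Bnip3, Pdk1, P4ha1, P4ha2, Ero1l, Ddit4, Mxi1 and Pfkl passed limma's test in 10 of 11 alternatives, all but the one without both day 2 arrays. The number of members higher in dense ran from 0 to 19 when 1 day was left out, that of glycolysis genes from 0 to 6 and that of the other targets from 0 to 13. Without the day as a replicate block 12 members were higher. Quantile normalization applied again left 2 glycolysis genes higher. The gap between the medians of the other targets and the glycolysis genes was 0.79, and 0.62 after that normalization, 0.93 with a filter at the median level, 0.59 with the mean of all probe sets, and 0.55 to 0.91 with 1 day left out. For the slope difference 1 member passed with a mean-variance trend and 0 in 4 other alternatives, and members with a lower slope in dense numbered 20 to 24 with 1 day left out. Leaving out 1 day gave differences of -0.025 to 0.35 for Aldoc, -0.026 to 0.011 for Gapdh, -0.30 to 0.014 for Eno1 and -0.28 to 0.36 for Pfkfb4. In all 4 genes, none of them called, the sign turned without both day 3 arrays. Centring on the 75th percentile turned Gpi1 (-0.038). That centring moved the median difference of all genes from -0.05 to -0.18, with 12 of the 13 calls kept. Of all calls 74.0% were higher in dense with the values as deposited, 57.0% after quantile normalization and 39.3% after centring. The causes were not tested.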
